A study of Mus musculus with 8 samples.

Results

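Intergenic long non-coding RNAs (lncRNAs) of the mouse testis were compared between Iqch mutant and wild-type males. A gene entered the set when GENCODE release M39 (genome build GRCm39) gave it the type lncRNA, when it lay on an autosome, and when its gene body was more than 10 kb from the body of every protein-coding gene on either strand. It also had to have a mean of at least 5 CPM in wild-type testes, where CPM scales each library to 1000000 reads, so the members were selected on measured values as well as on annotation, and 10 lncRNAs were left out by name. Of the 17127 genes in the deposited table, 1916 were lncRNAs and 379 met the rule. A further 253 autosomal lncRNAs at the same distance had a wild-type mean under 5 CPM.

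The values came from RNA of whole adult testis, with 4 wild-type libraries (1 to 4) and 3 mutant libraries (1, 2 and 4). The males were 4 months old, and each library came from a separate testis sample. The mutants carry the label Iqch-/- and were homozygous for a short frameshift deletion made by CRISPR/Cas9 in a coding exon near the end of Iqch. The lines were founded in B6CBAF1 (C57BL/6xCBA) zygotes, and the name Iqchmu covered both edited lines. The study names the Iqchmu7 line for its phenotyping and for the read coverage of Iqch, while the labels of the libraries name no line. The strain background of the wild-type controls was not given in the sources used here, so effects of background and of the mutation cannot be told apart. Mutant 3 was not analysed here.

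Each library summed to 1000000 CPM over the table. The smallest step between values put the reads behind a library at 32859673 to 37551057 in wild-type and at 32064384 to 34806129 in mutant testes, and 1 read was worth 0.0266 to 0.0312 CPM. Iqch itself averaged 208 CPM ± 11.3 (SD, n = 4) in the controls and 67.3 CPM ± 2.25 (SD, n = 3) in the mutants, with no overlap between the groups (log2 fold change -1.63, limma adjusted p = 1.9e-10). No library stood against its label.

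LncRNAs are transcripts, mostly spliced and polyadenylated, that have no long open reading frame. Those transcribed between coding genes have promoters of their own, are usually less abundant than messenger RNAs, and are for the most part without a known function. The testis makes more of them than other tissues, chiefly in meiotic spermatocytes and in spermatids, the haploid cells that follow meiosis. In bulk testis RNA, fewer cells of a type and less RNA per cell cannot be told apart.

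The marker lists moved with genotype in these libraries. The 17 spermatid markers, the genes that the study examined as such in its own testis data, summed to 22503 to 23801 CPM in wild-type and to 14539 to 16675 CPM in mutant testes, and 15 of 17 were lower. The 10 spermatocyte markers summed to 1261 to 1284 CPM and to 1179 to 1257 CPM, with 1 higher and 1 lower. All 10 Sertoli cell markers were higher, at 1329 to 1431 CPM in wild-type and 2794 to 2987 CPM in mutant testes. Of the 9 Leydig cell markers 8 were higher (1168 to 1385 CPM against 4873 to 4996 CPM), and all 8 macrophage markers were higher (85.8 to 94.5 CPM against 257 to 295 CPM). Of 9 spermatogonium markers 5 were higher (272 to 289 CPM against 334 to 379 CPM), and of 5 myoid and endothelial markers 1 was (82.4 to 105 CPM against 94.2 to 119 CPM). Over all genes tested 36.3% were higher and 14.2% lower. After rescaling by size factors (described below) 16 spermatid and 5 spermatocyte markers were lower and 0 higher. Higher on that scale were 8 Sertoli, 8 Leydig, 8 macrophage and 1 spermatogonium marker, with 0 lower. Of the myoid and endothelial markers 1 was higher and 1 lower. Over all genes 27% were then higher and 25.1% lower. No marker was at 0 in any library, and the part of these shifts in the results below was not tested.

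The intergenic lncRNAs were lower in mutant testes far more often than higher. Of the 379 members, 134 (35.4%) were called lower and 24 (6.33%) were called higher, and 221 were not called (limma on log2(CPM + 0.1), adjusted p below 0.01 over all genes tested). Over all 17126 genes tested the direction was the opposite, with 14.2% lower and 36.3% higher. Among genes with the same wild-type minimum of 5 CPM, 16.4% were lower and 34.8% were higher. The median log2 fold change of the members was -0.22, against 0.12 over all genes, which places the members 0.35 below the median gene. Their summed level fell from 7344 to 7879 CPM in wild-type to 6616 to 6672 CPM in mutant testes, with no overlap between the groups.

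The scale of the libraries mattered for the size of this split and not for its direction. When each library was rescaled by a size factor, the median of its ratios to a reference library, the median of all genes moved from 0.12 to -0.01, and the calls over all genes became 25.1% lower and 27% higher. On that scale 198 members were lower and 17 were higher, with a median of -0.36. All 134 decreases were called on both scales, as were 17 of the 24 increases, and 0 members turned direction.

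Where the values of the members separated the groups, the mutant values were mostly the lower ones. In 172 members (45.4%) all mutant libraries lay below all wild-type libraries and in 30 (7.92%) they lay above, against 19.5% and 42.8% of all genes tested. The groups overlapped in 177 of 379 members and in 6462 of 17126 genes tested, so separation in either direction was less frequent among the members. With 3 and 4 libraries there are 35 ways to assign the labels, so an exact two-sided permutation test of a single member cannot give less than p = 0.029. Most changes were modest. The median among the called decreases was -0.55 on the log2 scale, a mutant level of 67.5% of the wild-type level, and among the called increases 0.73, or 166% of the wild-type level. A change over 2-fold was called in 20 members that were lower and 3 that were higher, against 1.22% and 8.79% of all genes. Among the 13422 genes with a wild-type mean of at least 5 CPM, 123 were lower and 697 higher by over 2-fold. The wild-type minimum bars large increases from a low level, so the member counts of large changes depend on it.

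**Figure D1:**
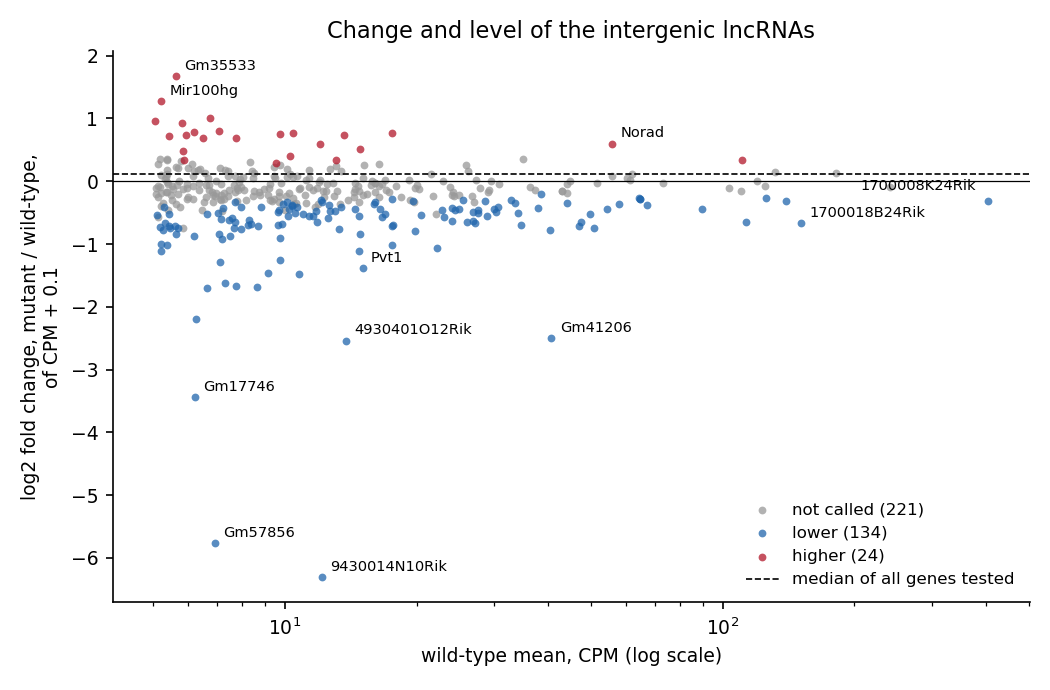
Log2 fold change of CPM + 0.1 (mutant over wild-type, vertical axis) against the wild-type mean in CPM (log scale, horizontal axis) for the 379 intergenic lncRNAs. Blue points are the 134 members called lower, red points the 24 called higher and grey points the 221 not called, and the dashed line is the median of all genes at 0.12.

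The wild-type minimum shapes these counts, since a lncRNA that reaches 5 CPM only in the mutant was never eligible. With the minimum set on the mutant libraries instead, 347 lncRNAs met the rule, 96 were lower and 39 higher, with a median of -0.14. With the minimum set on all 7 libraries, 362 met it, 115 lower and 30 higher, with a median of -0.17. At the same distance and at any level, 191 of 632 were lower and 57 were higher. Called decreases outnumbered called increases in each of these sets. Changes over 2-fold did not keep that order, with 5 lower and 13 higher when the minimum was set on the mutant libraries. They were 14 lower and 7 higher with the minimum on all 7 libraries, and 42 lower and 18 higher at any level.

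Distance from coding genes was compared with the 708 autosomal lncRNAs that met the same minimum but lay within 10 kb of a coding gene, 581 of them overlapping a coding gene body. Of these, 234 (33.1%) were lower and 48 (6.78%) were higher, with a median of -0.19. The shares are close to those of the intergenic members, and the difference between the 2 sets was not tested. Among 11391 protein-coding genes at the same minimum, 1671 (14.7%) were lower and 4428 (38.9%) were higher, with a median of 0.12.

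**Figure D2:**
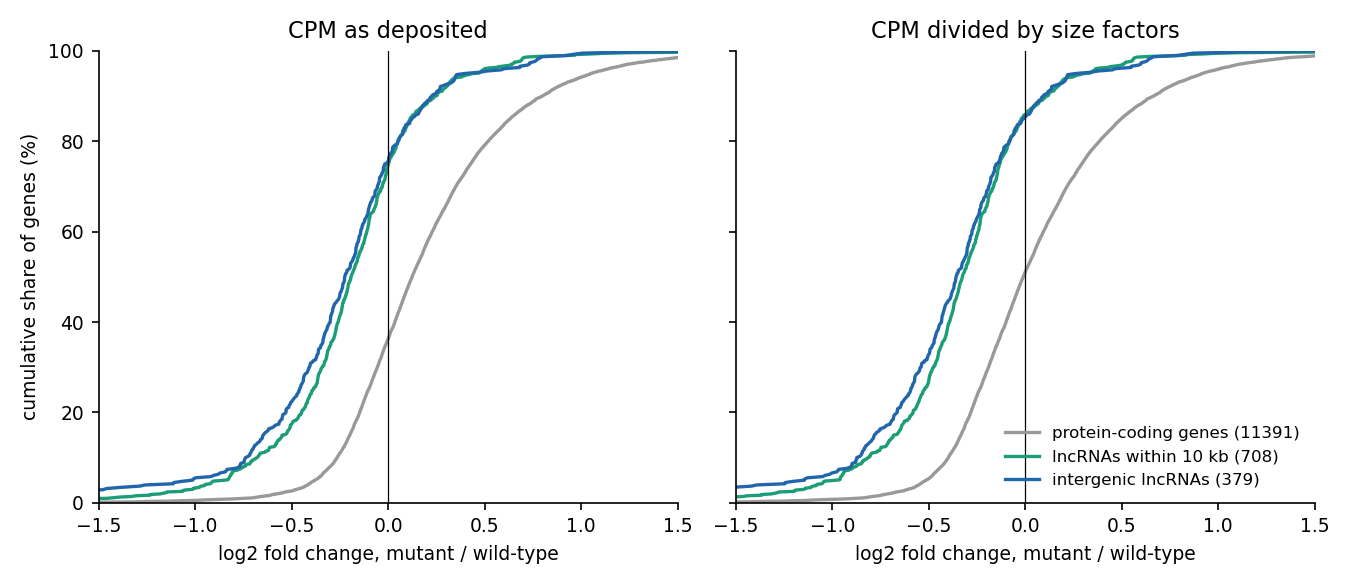
Cumulative share of genes (percent) by log2 fold change, for 379 intergenic lncRNAs, 708 lncRNAs within 10 kb of a coding gene and 11391 protein-coding genes, all with a wild-type mean of at least 5 CPM, in CPM as deposited (left) and after division by size factors (right). Both lncRNA curves lie to the left of the coding curve on either scale, with members at a median of -0.22 and -0.36, and the axis is limited to changes of at most 1.5 in either direction.

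Within the set, members farther from coding genes were lower more often. The share called lower was 29.7% of 155 members at 10 to 50 kb, 34.1% of 85 at 50 to 100 kb, 37.9% of 66 at 100 to 200 kb and 46.6% of 73 beyond 200 kb. The increases did not follow this order, with 8.39%, 3.53%, 4.55% and 6.85%. After size factors the share called lower no longer rose at every step, with 49.7%, 42.4%, 60.6% and 61.6%. Among members with more than 50 kb to the nearest coding gene, 88 of 224 were lower and 11 were higher.

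The share called also varied with the level in wild-type testis, the value on which the rule selects. Of the 179 members at 5 to 10 CPM, 50 were lower and 15 were higher, while of the 61 at 20 to 50 CPM 32 were lower and 0 were higher. At 10 to 20 CPM 39 of 111 were lower and 7 higher, and above 50 CPM 13 of 28 were lower and 2 higher. From the lowest level to the highest, the median log2 fold changes were -0.19, -0.23, -0.32 and -0.13. The median SE fell from 0.121 to 0.0596, so a change of a given size was easier to call at high levels. Shares over all genes at these levels are not given.

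The number of exons separated the calls little, and exon length more. The share called lower was 33.3% of the 12 members whose canonical transcript has 1 exon, 37.0% of 81 with 2 exons, 35.1% of 94 with 3 and 34.9% of 192 with 4 or more. By summed exon length it was 47.6% of 21 members up to 1 kb, 40.5% of 79 at 1 to 2 kb, 34.5% of 200 at 2 to 5 kb and 29.1% of 79 above 5 kb, and after size factors it also fell at every step, with 81.0%, 55.7%, 51.5% and 43.0%. Members called lower had a median exon length of 2488 bp and those called higher 3857 bp, and the median distance to a coding gene was 80779 bp and 43841 bp. Their median GC content was 45.3% and 47.3%. Of the 114 members that overlap no other annotated gene, 47 were lower and 2 were higher.

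**Figure D3:**
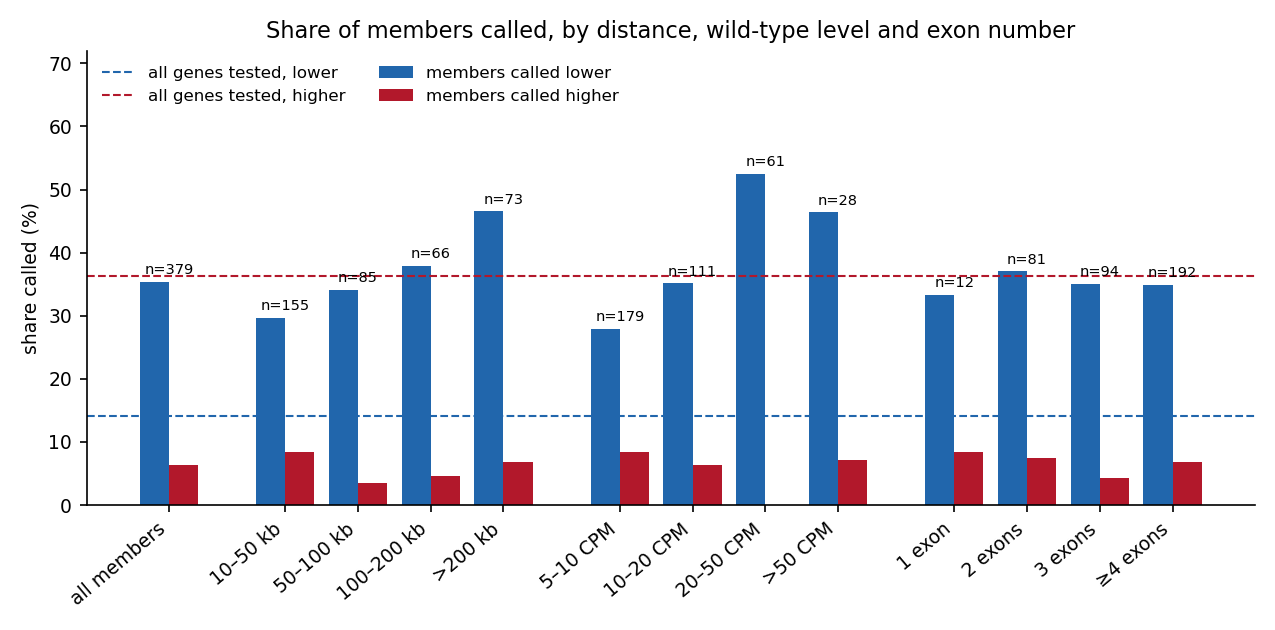
Share of members called lower (blue bars) and higher (red bars) in percent, for all 379 and by distance to the nearest coding gene, wild-type mean and exon number, with the number of members above each pair. The dashed lines are the shares over all genes tested, 14.2% lower and 36.3% higher, and every group of members exceeds the first and falls short of the second.

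The members were spread over all 19 autosomes. Among the 17 chromosomes with 10 or more members, the share called lower ran from 23.5% to 70.6%. The top value belongs to chromosome 12, where 12 of 17 members were lower and 0 were higher, with a median of -0.53. It is the extreme of 17 small groups, named after the values were seen. Shares over all genes by chromosome are not given, and differences between chromosomes were not tested. Chromosome 6 had 11 lower of 20 and chromosome 13 had 8 lower and 5 higher of 30. On chromosome 9, which carries Iqch, 8 of 23 were lower and 4 higher.

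The largest decreases left almost no reads in the mutant. 9430014N10Rik, a gene on chromosome 15 with its nearest coding gene 308 kb away, had 11.0, 11.6, 14.4 and 11.6 CPM in wild-type testes 1 to 4. In mutants 1, 2 and 4 it had 0, 0.125 and 0.0614 CPM, which are 0, 4 and 2 reads. Over pooled reads that is 1674 against 6, a level 201-fold lower per read counted (exact 95% interval 92.0 to 548, counting error only; limma adjusted p = 1.5e-09). Gm57856 on chromosome 9 had 6.43, 8.04, 6.94 and 6.31 CPM in wild-type and 0, 0.0624 and 0.0307 CPM in mutant testes. Its pooled reads were 956 against 3, a ratio of 229 (exact 95% interval 78.2 to 1114; limma adjusted p = 1.3e-09). In both genes every wild-type library was far above every mutant library. The nearest tested coding genes did not fall with them: Prickle1, beside 9430014N10Rik, had a log2 fold change of 0.65 and Sorl1, beside Gm57856, of 0.80, both called higher.

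Gm17746, 28.1 kb from the gene of the transcription inhibitor Id2, had 7.63, 7.22, 3.23 and 6.84 CPM in wild-type and 0.431, 0.281 and 0.737 CPM in mutant testes (log2 fold change -3.44, SE 0.31, limma adjusted p = 1.1e-06). Wild-type 3 was lowest of its group and still above every mutant. 4930401O12Rik fell from 13.8 CPM ± 0.746 (SD, n = 4) to 2.30 CPM ± 0.226 (SD, n = 3), with libraries at 12.7, 14.4, 14.2 and 13.9 CPM against 2.56, 2.15 and 2.18 CPM (log2 fold change -2.54). Gm41206 on chromosome 14 combined a large change with many reads, at 37.9, 44.4, 38.0 and 42.3 CPM in wild-type and 7.33, 6.95 and 7.03 CPM in mutant testes (log2 fold change -2.50, SE 0.07, limma adjusted p = 1.5e-10). The groups did not overlap in any of these genes, and no other member fell more than 4-fold except 4930448A20Rik.

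4930448A20Rik had 5.74, 7.66, 5.87 and 5.81 CPM in wild-type and 1.44, 1.19 and 1.26 CPM in mutant testes (log2 fold change -2.19). Gm38590 had 5.95, 6.58, 6.18 and 7.80 CPM against 1.67, 2.00 and 2.27 CPM (-1.70). 1700109G15Rik had 7.39, 10.5, 8.16 and 8.47 CPM against 3.22, 2.15 and 2.49 CPM (-1.69). Pvt1, the lncRNA next to the Myc gene that is known for its amplification in tumours, fell as well, from 15.6, 14.3, 15.6 and 14.8 CPM to 4.25, 6.64 and 6.57 CPM (log2 fold change -1.38, SE 0.14, limma adjusted p = 2.3e-06). Mutant 1 had the least Pvt1, and Myc was not among the genes tested.

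**Figure D4:**
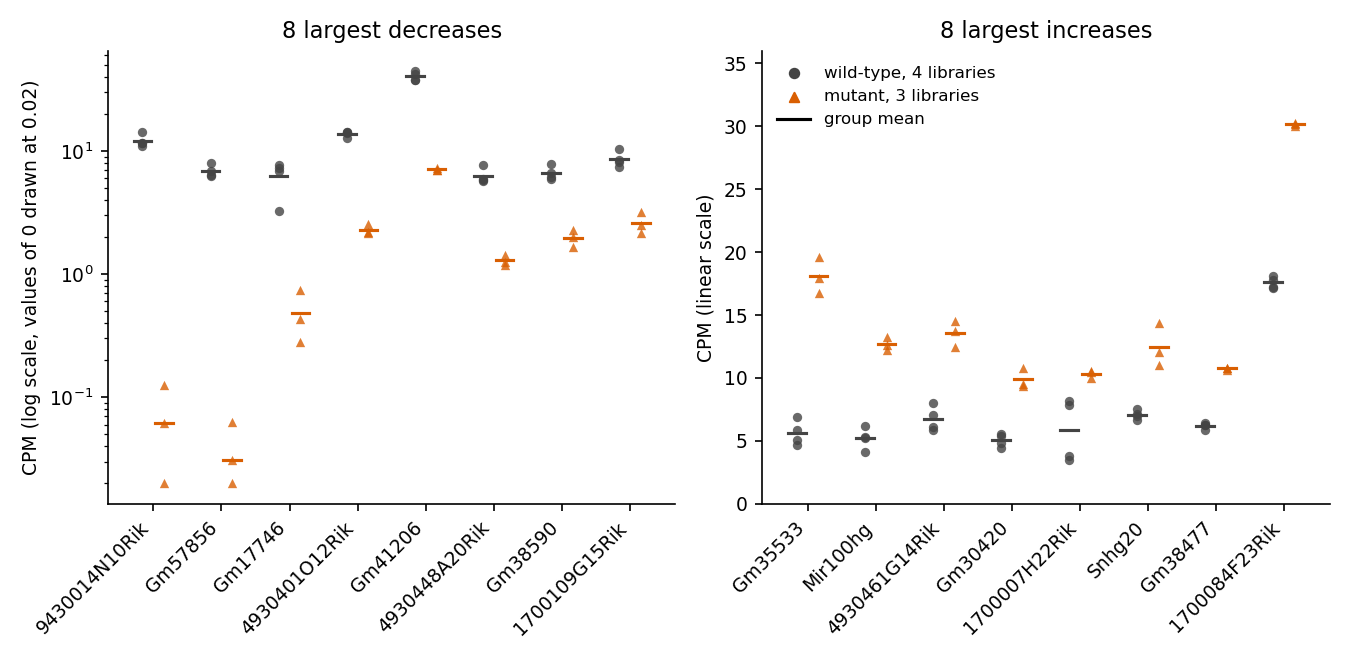
CPM in each library for the 8 largest decreases (left, log scale, values of 0 drawn at 0.02) and the 8 largest increases (right, linear scale) among members called with no overlap between groups. Circles are the 4 wild-type and triangles the 3 mutant libraries, and bars are group means. 9430014N10Rik goes from 11.0 CPM or more to 0.125 CPM or less, while the largest increase, Gm35533, goes from at most 6.91 CPM to at least 16.8 CPM. The rule asked for a wild-type mean of at least 5 CPM, so increases from near 0 are absent.

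The largest increases among the members were smaller, a difference that the rule favours. A lncRNA near 0 in wild-type testes could not be a member, while one near 0 in the mutants could. The log2 fold changes of the distant lncRNAs under the minimum ran from -5.13 to 4.84. Gm35533 on chromosome 10 had 6.91, 5.07, 5.90 and 4.69 CPM in wild-type and 18.0, 19.6 and 16.8 CPM in mutant testes (log2 fold change 1.68, SE 0.13, limma adjusted p = 2.1e-07). It lies 29.2 kb from Kitl, which encodes the ligand of the KIT receptor and was higher too (log2 fold change 1.35). Mir100hg, the host transcript of a miRNA cluster on chromosome 9, had 4.16, 5.30, 5.26 and 6.18 CPM against 12.2, 13.3 and 12.6 CPM (log2 fold change 1.28, SE 0.12, limma adjusted p = 1.8e-06). It ends 86.2 kb from Gm57856, which fell to near 0 in the same testes. 4930461G14Rik rose from 6.75 CPM ± 1.01 (SD, n = 4) to 13.6 CPM ± 1.07 (SD, n = 3), and no library of either gene overlapped the other group.

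Gm30420 had 4.43 to 5.54 CPM in wild-type and 9.37 to 10.8 CPM in mutant testes (log2 fold change 0.96). Gm38477 had 5.84 to 6.44 CPM against 10.6 to 10.8 CPM (0.79), and 1700084F23Rik had 17.2 to 18.1 CPM against 30.0 to 30.3 CPM (0.77). 1700007H22Rik, 732 kb from Gm38477 on chromosome 16, was uneven in the controls, with 3.50 and 3.79 CPM in wild-type 1 and 2 and 7.88 and 8.18 CPM in wild-type 3 and 4. Its mutant values were 10.5, 10.5 and 9.98 CPM (log2 fold change 0.92, limma adjusted p = 0.0077), and it was not called after size factors (adjusted p = 0.017).

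Promoter sequence was available for 253 of the 379 members in a RefSeq table (GRCm38.p6), as windows of 250 bases before and 50 after the start of the transcript. The windows of the most reduced member that had one, of 4930401O12Rik and of the increased Mir100hg and 4930461G14Rik are shown, because these genes changed most and their RefSeq start lies near the start of a canonical GENCODE transcript (within 205 bp). Each printed window was found once in GRCm39, whose coordinates are given. The RefSeq starts of Gm41206, Gm17746 and Snhg20 lay 62513, 3510 and 992 bp from the GENCODE start, and their windows are not printed. Capitals mark a match to a searched motif.
9430014N10Rik, chr15:93824943-93825242, minus strand: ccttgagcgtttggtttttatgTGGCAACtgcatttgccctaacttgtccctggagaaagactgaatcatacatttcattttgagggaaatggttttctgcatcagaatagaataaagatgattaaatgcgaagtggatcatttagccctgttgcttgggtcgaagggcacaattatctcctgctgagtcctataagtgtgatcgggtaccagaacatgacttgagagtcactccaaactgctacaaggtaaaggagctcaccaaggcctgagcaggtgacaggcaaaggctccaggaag
4930401O12Rik, chr13:31425020-31425319, minus strand: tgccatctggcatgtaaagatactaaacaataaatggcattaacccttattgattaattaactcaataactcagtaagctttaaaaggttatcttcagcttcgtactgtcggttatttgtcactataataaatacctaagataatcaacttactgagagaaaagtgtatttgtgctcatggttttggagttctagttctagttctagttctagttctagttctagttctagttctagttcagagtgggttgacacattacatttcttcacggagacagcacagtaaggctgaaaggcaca
Mir100hg, chr9:41287572-41287871, plus strand: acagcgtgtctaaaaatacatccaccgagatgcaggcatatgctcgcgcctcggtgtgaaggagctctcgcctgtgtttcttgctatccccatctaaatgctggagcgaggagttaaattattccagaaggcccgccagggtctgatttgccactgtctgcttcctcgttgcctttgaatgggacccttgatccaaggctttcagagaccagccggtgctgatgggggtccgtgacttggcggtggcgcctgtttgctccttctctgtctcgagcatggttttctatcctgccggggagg
4930461G14Rik, chr9:58362206-58362505, plus strand: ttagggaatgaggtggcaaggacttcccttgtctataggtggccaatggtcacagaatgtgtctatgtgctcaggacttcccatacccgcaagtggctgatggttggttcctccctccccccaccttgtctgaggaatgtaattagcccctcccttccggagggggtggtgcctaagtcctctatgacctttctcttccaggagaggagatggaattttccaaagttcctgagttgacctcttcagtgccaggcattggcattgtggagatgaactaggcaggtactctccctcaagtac
Of the motifs searched, the window of 9430014N10Rik holds GTTGCCA on the opposite strand (printed as TGGCAAC), the core of the site bound by RFX factors, which drive ciliary and spermatid genes. The other 3 windows hold none of the motifs, which says only that these letters are absent there.

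The motifs were searched on both strands of every window, whether or not its start was near the GENCODE start. For most members the 2 starts were not compared, so the shares describe RefSeq windows, some of which may lie elsewhere. GTTGCCA was in 23 of 253 members (9.09%), against 4.46% of the 27025 windows in the table and 4.79% of the windows of the tested genes. It was in 7 of 89 members called lower, 4 of 15 called higher and 12 of 149 not called. AACNGTT, the MYB motif, was in 9 of 89 lower members (10.1%), 0 of 15 higher and 7 of 149 not called (4.70%), against 4.36% of all windows and 3.58% of those of tested genes. The cAMP response element TGACGTCA was in 5 members (1.98%), against 1.88% of all windows and 3.09% of those of tested genes. Its core TGACG, which lies inside it, was in 43 members (17.0%), against 21.0% and 29.4%. TATAAA was in 14.6% of members, close to the 14.2% of all windows and above the 7.62% of tested genes. CACGTG, the E-box, was in 8.70% of members, between the 7.24% of all windows and the 9.64% of tested genes. None of these differences was tested. A match is a description of the letters and not of binding.

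Transcription regulators of male germ cells, some of which read these motifs, changed by small amounts. Of 10 genes in the list, 5 were lower and 0 were higher, against 14.2% lower and 36.3% higher of all genes tested. After size factors 8 were lower and 0 higher, against 25.1% and 27% of all genes. A link of these genes to the motifs or the members was not tested. Tcfl5, a regulator of meiotic and spermatid genes, went from 325 CPM ± 11.0 (SD, n = 4) to 280 CPM ± 1.70 (SD, n = 3), a log2 fold change of -0.21. Rfx2 had 411 CPM ± 11.7 and 372 CPM ± 11.1 (-0.15), and Sox30 191 CPM ± 12.5 and 168 CPM ± 0.646 (-0.18). Mybl1, the MYB factor of meiosis, had 63.1 CPM ± 3.84 and 56.3 CPM ± 4.45 and was not called (-0.16, limma adjusted p = 0.041). Crem, the cAMP response factor of spermatids, had 208 CPM ± 9.04 and 186 CPM ± 9.36 and was not called either (-0.16, limma adjusted p = 0.0103).

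Nuclear decay and 3' end processing limit how much lncRNA accumulates in cells. Of 16 genes in that list, 5 were higher (31.25%) and 3 lower (18.75%), near the 36.3% and 14.2% of all genes tested. After size factors 1 was higher (6.25%) and 7 were lower (43.75%), against 27% and 25.1% of all genes. A link of these genes to the members was not tested. Dis3, a catalytic subunit of the RNA exosome, was lower on both scales, from 105 CPM ± 5.19 (SD, n = 4) to 79.1 CPM ± 4.09 (SD, n = 3) (log2 fold change -0.40). Exosc3 and Exosc5, subunits of the exosome core, were also lower on both (-0.24 and -0.19). Pabpn1, the nuclear poly(A) binding protein, was higher on both, from 98.8 CPM ± 3.24 to 123 CPM ± 0.0874 (0.31). Mtrex, the helicase that feeds RNA to the nuclear exosome, was higher only in CPM as deposited (0.25).

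Hosts of miRNA genes were examined next, since a host transcript is the precursor of the miRNAs it holds. Of the 379 members, 14 hold an annotated miRNA gene on their own strand, 50 such genes in all, and 4 hosts were higher, 2 lower and 8 not called. Over all members 6.33% were higher and 35.4% lower, and over all genes tested 36.3% and 14.2%. Whether the hosts differ from either was not tested. Mature miRNAs were not measured. Selected miRNAs of Mir100hg, Gm2044 and Mir9-3hg, which changed, and of Mir99ahg, which was not called, are shown with the seed (bases 2 to 8) in capitals, so that the related clusters of Mir100hg and Mir99ahg can be compared. This choice was made after the values were seen.
mmu-miR-100-5p: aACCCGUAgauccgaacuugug
mmu-miR-99a-5p: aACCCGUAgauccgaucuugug
mmu-miR-125b-5p: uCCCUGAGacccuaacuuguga
mmu-let-7c-5p: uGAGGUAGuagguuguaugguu
mmu-miR-202-5p: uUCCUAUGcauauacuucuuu
mmu-miR-202-3p: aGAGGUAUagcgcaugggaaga
mmu-miR-9-5p: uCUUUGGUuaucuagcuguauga
mmu-miR-9-3p: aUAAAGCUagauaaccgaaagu
miR-100-5p and miR-99a-5p share the seed ACCCGUA and lie in different members, Mir100hg and Mir99ahg, and each of these hosts also holds a copy of miR-125b (seed CCCUGAG) and of let-7.

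These paralogous hosts had different values. Mir100hg went from 5.23 CPM ± 0.827 (SD, n = 4) to 12.7 CPM ± 0.528 (SD, n = 3). Mir99ahg had 6.94, 8.65, 8.55 and 9.64 CPM in wild-type and 8.79, 8.02 and 9.43 CPM in mutant testes, so its groups overlapped (log2 fold change 0.06, SE 0.12, limma adjusted p = 0.69). The difference between the hosts was not tested. Gm2044, which holds Mir202, a miRNA gene known from gonads, had 10.4, 10.3, 9.95 and 8.20 CPM against 14.5, 16.9 and 18.3 CPM (log2 fold change 0.76, limma adjusted p = 5e-05), and was named after its values were seen.

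Mir9-3hg, host of a copy of the neural miRNA miR-9, went the other way, with 18.0, 20.4, 18.8 and 21.9 CPM in wild-type and 10.9, 11.7 and 11.5 CPM in mutant testes (log2 fold change -0.79, SE 0.08, limma adjusted p = 3.3e-06). 4930448C13Rik was also lower (16.9 CPM ± 1.30 to 11.7 CPM ± 1.18, -0.53). Mir17hg, host of the growth-promoting miR-17 cluster, had 11.7 to 12.6 CPM and 11.5 to 12.9 CPM (log2 fold change 0.02), and Mirg, a host of 14 miRNA genes in the imprinted domain of chromosome 12, had 11.6 to 13.9 CPM and 11.7 to 12.7 CPM (-0.05). Gm21269, host of Mir7234, was not called either, at 182 CPM ± 18.4 and 200 CPM ± 13.7. Gm49794, host of Mir7217 and Mir7218, was higher (111 CPM ± 2.42 to 140 CPM ± 3.86, log2 fold change 0.34).

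Of the 379 members, 164 have symbols of the Gm type and 200 of the Rik type, and 15 have other names, a group formed after the values were seen. Among the 15, 6 were lower and 3 higher. Norad, which binds PUMILIO proteins and guards chromosome stability, rose from 55.0, 56.9, 57.7 and 54.5 CPM to 81.0, 88.5 and 85.4 CPM (log2 fold change 0.60, SE 0.05, limma adjusted p = 4.2e-07). Snhg20, a small nucleolar RNA host gene by name, rose from 6.97, 7.17, 6.66 and 7.56 CPM to between 11.0 and 14.3 CPM (0.80). Snhg5 (20.9 to 22.4 CPM and 22.4 to 24.1 CPM) and Snhg17 (11.6 to 14.5 CPM and 14.9 to 16.3 CPM) were not called. Pldi, known as a young testis lncRNA, was lower (25.0 CPM ± 1.09 to 18.4 CPM ± 1.36, log2 fold change -0.44), and so was BB019430 (-0.45). Morrbid, a lncRNA near Bcl2l11 known from myeloid cells, had 4.85 to 5.48 CPM and 3.93 to 5.19 CPM and was not called.

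Of the 8 members with the most CPM in wild-type testes, 4 were called lower and 4 were not called. 1700008K24Rik on chromosome 17 had 390, 440, 370 and 416 CPM in wild-type and 318, 345 and 314 CPM in mutant testes (log2 fold change -0.31). Per kb of exon that is 299 CPM and 241 CPM. 1700018B24Rik, 1134 kb from its nearest coding gene Pcdh18, had 159, 146, 147 and 152 CPM against 98.4, 92.9 and 95.2 CPM (-0.66, SE 0.05, limma adjusted p = 9.7e-08), or 182 and 115 CPM per kb. Gm10076 (139 CPM ± 5.48 to 113 CPM ± 4.24) and AY702103 (126 CPM ± 5.82 to 104 CPM ± 2.93) were lower as well. The other 4, 1700029M20Rik, Gm21269, 4930444F02Rik and Gm29825, overlapped between the groups and had log2 fold changes from -0.09 to 0.14.

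Some members changed little in spite of many reads. Gm48485 had 42.8 to 48.0 CPM in wild-type and 43.7 to 45.5 CPM in mutant testes, and Gm14152 had 21.5 to 25.8 CPM and 22.4 to 23.8 CPM, both with a log2 fold change of 0.00 in size. The 3 members farthest from any coding gene did not move together. Gm49048, 2063 kb away, had 15.2 CPM ± 1.91 and 18.1 CPM ± 0.438 (log2 fold change 0.26, limma adjusted p = 0.025), and 4933402J10Rik, 1823 kb away, was lower (64.4 CPM ± 3.35 to 53.8 CPM ± 2.38, -0.26). 1700022A22Rik, 1207 kb away, had 17.4 to 21.8 CPM and 13.5 to 19.6 CPM and was not called. Among the members with the longest exons, Gm33228 had 11.5 to 12.8 CPM and 9.20 to 12.7 CPM and was not called either.

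Members just inside the minimum were Gm30420 and 4933430H16Rik, with wild-type means of 5.04 and 5.07 CPM and mutant means of 9.89 and 4.68 CPM. Gm45175 and Gm13814 lay just outside, with wild-type means of 4.95 CPM each and mutant means of 3.82 and 6.12 CPM. Of the 253 distant lncRNAs under the minimum, 27 had a mutant mean of at least 5 CPM and 15 of those were called higher. They include changes larger than any increase among the members. 2900052N01Rik had 0.509, 0.233, 0.517 and 0.479 CPM in wild-type and 5.34, 4.77 and 5.71 CPM in mutant testes, and Gm20559 had 2.48, 2.50, 3.41 and 2.93 CPM against 20.3, 23.7 and 28.7 CPM. 4933431M02Rik had 0.186 to 0.350 CPM in wild-type, and 0.546, 53.1 and 28.8 CPM in mutants 1, 2 and 4, so mutant 1 stood apart from the other mutants. These 3 genes were named after their values were seen.

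Members near each other were not lower together as a rule. Members less than 50 kb apart formed 26 runs with 54 members, and the bodies of members overlap in 15 of the runs. In 12 runs no member was called, in 9 some but not all were lower, in 1 some were higher, in 3 both directions occurred and in 1 all were lower. That run is on chromosome 6 and holds 1700013D24Rik (89.8 CPM ± 4.93 to 66.2 CPM ± 1.55), 1700027F06Rik (34.6 CPM ± 4.36 to 21.2 CPM ± 1.21) and Gm44006 (17.5 CPM ± 1.26 to 10.6 CPM ± 0.442). 1700013D24Rik and 1700027F06Rik overlap on the same strand, so the division of reads between them is uncertain. Their nearest coding gene, Cd163 of macrophages, was higher (log2 fold change 1.84).

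On chromosome 17 a run of 3 members on the plus strand moved in different directions. Gm10505 had 9.18, 9.03, 9.98 and 9.61 CPM in wild-type and 9.91, 10.1 and 13.6 CPM in mutant testes and was not called (log2 fold change 0.23). Gm49794 had 114, 110, 108 and 111 CPM against 145, 137 and 139 CPM (0.34, limma adjusted p = 1.3e-05). Gm49796, the most downstream, had 47.2, 52.1, 44.9 and 54.6 CPM against 36.2, 35.3 and 31.5 CPM (-0.53, limma adjusted p = 5.3e-05). The latter genes did not overlap between groups and went opposite ways.

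The nearest coding gene gave little information on a member. For 277 members the nearest coding gene was tested, 243 distinct genes in all, of which 101 (41.6%) were higher and 28 (11.5%) lower. These shares are near those of all genes tested, 36.3% and 14.2%. Among protein-coding genes with a wild-type mean of at least 5 CPM they were 38.9% and 14.7%. Of the 96 lower members with a tested neighbour, 38 had a neighbour that was higher, 11 one that was lower and 47 one that was not called. Of the 20 higher members, 12 had a neighbour that was higher and 1 one that was lower. Across the 277 pairs, which share libraries and in part the coding gene, the log2 fold changes had a Pearson correlation of -0.0025 and a Spearman correlation of 0.056, given as a description.

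**Figure D5:**
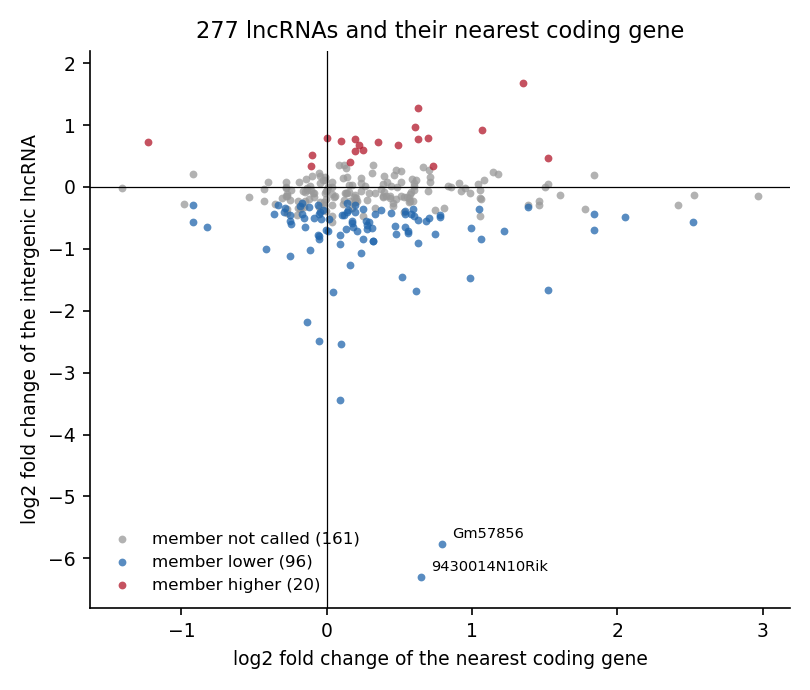
Log2 fold change of each intergenic lncRNA (vertical axis) against that of its nearest protein-coding gene (horizontal axis), for the 277 members whose nearest coding gene was tested. Points are coloured by the call of the member (96 lower, 20 higher, 161 not called), and they form no line, with a Pearson correlation of -0.0025.

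Overlapping annotation limits some of these values. Of the 379 members, 265 overlap another annotated gene, most often a lncRNA (235) or a pseudogene (59). The strand setting of the counting was not given in the sources used here, so reads from antisense pairs cannot be told apart.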

How the data were processed

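The authors extracted total RNA of whole testis, prepared libraries with the TruSeq RNA kit of Illumina and sequenced them as paired-end reads. They used Trimmomatic for trimming and Subread for alignment to GRCm39, obtained gene counts from featureCounts, and removed genes that did not reach 75 reads in 2 samples of either group. The deposited values are CPM, a gene's reads per 1000000 counted reads of its library, with no between-sample factor found in them. The annotation release and the strand setting of the counting were not given in the sources used here. Within a library, 100% of the values fell within 0.001 of a whole number of steps, a step being the CPM of 1 read, which gave the reads per library, and intervals on pooled reads cover counting error only.

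Members were found with GENCODE M39, in which 17045 of 17127 genes had an entry, and distances are between gene bodies. All genes were tested together with limma 3.58.1 (R 4.3.3) by moderated linear models with a mean-variance trend, after adding 0.1 to the CPM and taking log2. Genes had to reach 2.2 CPM in 2 libraries of either group, which 17126 did. P-values were adjusted by the Benjamini-Hochberg method over all genes tested, and a gene was called at an adjusted p below 0.01. Fold changes are on the log2(CPM + 0.1) scale, which understates changes of low genes. P-values measure the spread between these samples. Errors are SD over libraries and SE from limma. On simulated libraries for this comparison, with 16527 genes tested, the fit called 199 of 199 changed genes and 1 unchanged gene. Each changed gene was simulated with a 2-fold change, up and down in balance, and the same fixed dispersion for all genes. Most changes in the data were smaller, more numerous and uneven in direction. The simulation therefore does not show how often such changes are found or called in error.

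The members and lists were chosen with earlier results of these data known. The genes named are the 8 members with the highest wild-type mean, the 8 largest decreases and increases among called members without overlap, 2 on each side of the minimum, up to 6 holding a miRNA gene, the 3 farthest from coding genes, the 5 with the longest exons, runs of 3 or more, 3 with an uneven wild-type library and the 2 with the smallest change. Motif shares use 1 window per gene. Alternatives were other pseudocounts and minimums, size factors, a replicate block, each library left out, and other distances and levels in the rule. Python 3.11.15, pandas 2.3.3, NumPy 2.4.6, SciPy 1.17.1 and matplotlib 3.10.9 were used. The authors' own calls with edgeR and DESeq2 were not used.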

Additional observations from a re-analysis of the deposited data

Results flagged for a closer look

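In 4 named members, 1 of the 4 wild-type libraries stood apart from the other 3. The gap to its nearest neighbour, as a share of the range of the group, exceeded Dixon's 95% critical value for 4 samples. Chance alone would flag about 1 group in 20, and 13 of the 379 members (3.43%) were flagged in all, so a pattern of flags carries little weight. The share was 0.933 for 4930448A20Rik, where wild-type 2 was highest (7.66 CPM against 5.74 to 5.87 CPM). It was 0.947 for BC049739, where wild-type 1 was lowest (4.97 CPM against 7.78 to 7.94 CPM). The mutants had 4.42, 4.74 and 4.61 CPM, and this call (log2 fold change -0.60, limma adjusted p = 0.0047) was lost in 6 of the 7 fits that left out a library. It was 0.939 for 1700011B04Rik, where wild-type 1 was lowest (6.64 CPM against 7.28 to 7.32 CPM), and 0.933 for 1700116B05Rik, where wild-type 1 was highest (9.24 CPM against 8.18 to 8.25 CPM). Neither of the last was called in CPM as deposited.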

How the results depend on the processing

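The count of members called lower stayed within 1.5 times of 134 under the other pseudocounts (135 and 133), the other minimums (132 and 134), the replicate block (129) and the size factors (198), and from 114 to 132 with a library left out. The count called higher was 19 to 28 with a library left out and the median -0.24 to -0.21. Members without overlap numbered 208 to 228 with a library left out, against 202, and genes called among all those tested 7237 to 8503, against 8640. In all 13 other fits 99 of the 134 decreases and 17 of the 24 increases were called. The median moved to -0.36 with size factors. In the rule, a distance over 50 kb gave 88 lower, 11 higher and 121 without overlap among 224 lncRNAs, and genes that overlap no other gene gave 47, 2 and 55 among 114 with a median of -0.28, in both cases from fewer genes. A level set on the mutants gave 39 higher and a median of -0.14, and a level set on all 7 libraries a median of -0.17. Of 676 values of 52 named members, 12 lost a call and 8 gained one (656 stayed) and 0 reversed. 1700007H22Rik lost its call without wild-type 1 (adjusted p = 0.019), wild-type 2 (0.023) or any mutant, and with size factors. 1700022A22Rik gained one without mutant 2 (0.00079), and Gm21269 (0.0051), 4930444F02Rik (0.0044) and Gm49048 (0.0026) gained one without wild-type 4; the causes were not tested. The deviations of libraries with the same number had correlations of 0.026, 0.0094 and -0.098. Those of libraries with different numbers had correlations from -0.061 to 0.073. So few libraries cannot show whether the numbers pair the samples. The replicate block gave 19 higher, 129 lower and 7722 genes called. The planned count tests on the reads recovered from the CPM steps were not run, so how the calls depend on a count model is not shown here. Depth limits single members near 5 CPM, where 1 read is worth 0.0266 to 0.0312 CPM.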
